A study of Mus musculus with 2 samples.

Results

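The 10 transcription factors studied act in the intestinal secretory lineages, and they were followed, gene by gene, through single epithelial cells of the mouse small intestine. The genes were Atoh1, Gfi1, Spdef, Creb3l1, Creb3l4, Foxa3, Klf4, Xbp1, Bhlha15 and Sox9. They were picked by symbol for their known roles, and all 10 members were found among the 32285 genes of the count tables. The cells were Tomato+ cells sorted by FACS, in which Neurog3-driven Cre had switched on the red reporter tdTomato; Neurog3 is the factor that starts endocrine differentiation. The WT library came from Neurog3Cre; Rosa26tdtomato mice, and the library labelled NFKO from Neurog3Cre-FoxO1 f/f; Rosa26tdtomato mice, so that both carried the Cre and the reporter and only the latter the floxed FoxO1 alleles. Each was 1 library made from the whole small intestine of 4 to 5 pooled mice aged 4 to 6 weeks, after the pancreas had been removed, and no treatment is given. The reporter marks every descendant of a cell that had once used the Neurog3 driver, whatever that cell had become.

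Stem cells at the crypt base divide, and their daughters take either the absorptive or the secretory path. Notch signaling between neighbouring cells settles that choice: cells that receive the signal make Hes1, which holds Atoh1 down, and cells that escape it switch Atoh1 on and become secretory. Goblet cells then make mucus, Paneth cells make defensins, enteroendocrine cells make hormones, and tuft cells sense the contents of the lumen. Atoh1 is the bHLH factor that opens the secretory path, and Gfi1 is a repressor that acts below it. Spdef, Foxa3 and Klf4 serve the maturation of mucous cells. Creb3l1, Creb3l4, Xbp1 and Bhlha15 enlarge the secretory machinery, and Sox9 belongs to the crypt base, Paneth cells and tuft cells.

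The 10 genes are protein-coding and lie on 8 mouse chromosomes, and their positions are those of the GENCODE M21 annotation of GRCm38. Atoh1 (ENSMUSG00000073043) spans chromosome 6 from 64729125 to 64731245 on the plus strand, and Gfi1 (ENSMUSG00000029275) chromosome 5 from 107716657 to 107726036 on the minus strand. Spdef (ENSMUSG00000024215) spans chromosome 17 from 27714352 to 27728955 on the minus strand, and Foxa3 (ENSMUSG00000040891) chromosome 7 from 19013284 to 19023538 on the minus strand. The related genes Creb3l1 (ENSMUSG00000027230) and Creb3l4 (ENSMUSG00000027938) lie on chromosome 2 from 91982328 to 92024502 and on chromosome 3 from 90237500 to 90243512, both on the minus strand. Klf4 (ENSMUSG00000003032) lies on chromosome 4 from 55527143 to 55532466 on the minus strand. Xbp1 (ENSMUSG00000020484) and Sox9 (ENSMUSG00000000567) share the plus strand of chromosome 11, from 5520659 to 5525893 and from 112782224 to 112787760. Bhlha15 (ENSMUSG00000052271) lies on the plus strand of chromosome 5 from 144190286 to 144194441.

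RefSeq promoters on GRCm38.p6, each of 300 bases from 250 before the start site to 50 after it, were held for 8 of the 10 members, with 11 start sites in all. Those of Creb3l1 and Sox9 were not used here. ACGTG, the core of sites that bZIP factors such as Xbp1 and the Creb3l proteins can bind, was searched on both strands, as was CAGCTG, a sequence of the kind that bHLH factors bind. ACGTG was found for 3 members, Spdef, Klf4 and Bhlha15, and in 19.6% of all 32851 promoters of this length. CAGCTG was found for 1 member, Klf4, and in 16.3% of all promoters. The Klf4 ACGTG lies in a palindrome and reads the same on both strands. The 3 promoters that hold ACGTG are printed to show where it lies. Capitals mark the motifs, and the matches are a description of the letters, not of binding. Spdef is from chr17:27728902-27729201 on the minus strand, Klf4 from chr4:55532426-55532725 on the minus strand, and Bhlha15 from chr5:144190036-144190335 on the plus strand.
Spdef: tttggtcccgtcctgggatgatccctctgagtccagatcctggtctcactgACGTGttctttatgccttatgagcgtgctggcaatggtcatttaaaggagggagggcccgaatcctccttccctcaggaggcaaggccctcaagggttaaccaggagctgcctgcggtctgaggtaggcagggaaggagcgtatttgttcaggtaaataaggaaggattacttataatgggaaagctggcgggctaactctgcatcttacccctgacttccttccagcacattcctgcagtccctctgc
Klf4: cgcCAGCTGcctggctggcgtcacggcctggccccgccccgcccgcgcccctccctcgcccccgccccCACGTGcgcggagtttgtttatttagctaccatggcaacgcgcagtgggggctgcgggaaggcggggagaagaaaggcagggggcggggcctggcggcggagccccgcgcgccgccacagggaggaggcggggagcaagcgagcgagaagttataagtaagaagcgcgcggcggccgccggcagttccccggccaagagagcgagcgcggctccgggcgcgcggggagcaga
Bhlha15: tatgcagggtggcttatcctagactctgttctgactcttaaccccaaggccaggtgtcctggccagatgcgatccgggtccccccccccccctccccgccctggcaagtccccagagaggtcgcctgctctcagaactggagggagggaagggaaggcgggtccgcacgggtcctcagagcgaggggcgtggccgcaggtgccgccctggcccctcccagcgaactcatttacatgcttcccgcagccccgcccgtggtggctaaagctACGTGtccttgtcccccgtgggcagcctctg

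The cell filter left 3003 cells in WT and 5292 in the second library, with a median of 16883 and 17035 UMIs, and 6 barcodes occurred in both libraries. They were grouped in 24 clusters by expression, without the 10 members among the genes used. Levels are CPM: a gene's UMIs, added up over all cells of a class and library, per 1000000 UMIs of the same cells. Intervals are 95% intervals for counting error only, and the design holds no replicate and allows no test. A member was called higher or lower when it had at least 50 UMIs and its level differed by at least 1.5-fold. Foxo1, the gene to be deleted, was at 11.5 CPM (WT) and 12.4 CPM (NFKO) over all kept cells, a ratio of 1.07 (0.987 to 1.17). By class it was 0.291 (0.143 to 0.593) in tuft-like cells, from 18 UMIs in each library, and 0.515 (0.355 to 0.755) in cycling cells. In stem-like cells it was 1.38 (1.12 to 1.71), and in the other named classes it ran from 0.855 to 1.12. The study reported lower FoxO1 expression in Tomato+ cells that were sorted from NFKO mice. Tagging the 3′ end can still count a transcript from a deleted allele. Of the WT cells 2424 were male by sex-linked transcripts and 6 female, against 357 and 4357 in the library labelled NFKO, so that sex and genotype cannot be told apart over all cells. Lower levels in a class and fewer expressing cells within it cannot be told apart in a summed count.

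In all, 8 classes were named from markers, and the sums behind them ran from 655974 UMIs in the 85 WT tuft-like cells to 30407123 in the 1545 goblet-like cells of the library labelled NFKO. Goblet-like cells formed 3 clusters. The first was led by Mptx1 and Agr2 (164 WT cells and 728 of the other library), another by Ido1, Zg16 and Clca1 (83 and 798), and the last by Edn2, Areg and Hspa1a (589 and 19). The Edn2-led cluster was 98.2% WT and the Zg16-led cluster 84.5% NFKO when both libraries were weighted equally, so each may be a library as much as a state. No cluster took the name of secretory progenitors. Their 7 markers summed to 2243 and 2529 CPM in the cluster named endocrine progenitor, which also had more markers of that name. An unnamed cluster of 75 WT cells and 236 of the library labelled NFKO, where these markers summed to 630 and 538 CPM, was led by Cd244a, Dll1 and Cmtm7 and is called the Dll1-led cluster. It was singled out after its leading genes had been seen, so its levels are a description. Spdef, Creb3l1 and Gfi1 were among its 10 leading genes although they had taken no part in the clustering.

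Atoh1 and Gfi1 separated the mucous and cycling cells from all endocrine cells. The cycling cells also held goblet markers, at a sum of 48036 and 47682 CPM against 19384 and 30473 in stem-like cells. Cycling markers summed to 4861 and 4924 CPM in them and to 2782 and 2575 in stem-like cells, so the class does not stand for all dividing cells. Atoh1 was at 149 CPM (144 to 155) in WT goblet-like cells and 240 (234 to 246) in those of the library labelled NFKO. In cycling cells it was at 156 (142 to 172) and 219 (210 to 229), and in the Dll1-led cluster at 197 (176 to 219) and 231 (219 to 243). Goblet-like and cycling cells of WT therefore could not be ordered, while in the other library goblet-like cells were the higher. Paneth-like cells followed with 46.7 and 77.3 CPM and stem-like cells with 42.2 and 62.8. The 50 most abundant genes took 76.5% and 73.1% of the Paneth-like UMIs, against 38.1% and 41.7% in goblet-like cells, which lowers the Paneth-like CPM. Enteroendocrine-like cells had 6.55 and 6.07 CPM of Atoh1, and endocrine progenitors, marked by Neurog3, had 1.82 and 5.14. Gfi1 stood at 32.1 and 30.1 CPM in goblet-like cells and at 27.4 and 37.0 in cycling cells. It fell below 1.5 CPM in both endocrine classes, where it rested on 3 to 22 UMIs. In WT tuft-like cells Gfi1 had 0 UMIs, which allows up to 4.57 CPM.

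Spdef, an ETS factor, was also high in goblet-like and low in endocrine cells. It was at 229 CPM (222 to 235) in WT goblet-like cells and 264 (258 to 269) in the library labelled NFKO, and at 2.99 and 6.03 in enteroendocrine-like cells. Creb3l4, a membrane-bound bZIP factor that is cut free to enter the nucleus, was at 140 and 138 CPM in goblet-like cells and 3.10 and 3.63 in enteroendocrine-like cells. Its relative Creb3l1 was present across the endocrine cells as well. Creb3l1 was at 226 and 208 CPM in goblet-like cells, 268 and 307 in cycling cells, 50.4 (47.6 to 53.4) in enteroendocrine-like cells of the library labelled NFKO, with a WT interval of 54.9 to 65.3, and 34.5 and 40.6 in endocrine progenitors. The forkhead factor Foxa3 was at 178 and 232 CPM in goblet-like cells. Endocrine progenitors held 85.8 (74.0 to 99.0) and 106 CPM (97.4 to 115) of Foxa3, above enteroendocrine-like cells at 49.6 and 52.8. Paneth-like cells, at 54.3 and 79.2, were below the progenitors on the CPM scale only. The 50 most abundant genes took 76.5% and 73.1% of the Paneth-like UMIs and 27.2% and 24.9% of those of endocrine progenitors. Foxa3 UMIs per cell were 4.27 and 4.74 in the deeper Paneth-like cells and 1.04 and 1.61 in endocrine progenitors.

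Klf4 and Xbp1 were present in every class. Klf4, a zinc-finger factor that also occurs in differentiated absorptive cells, was at 491 and 571 CPM in goblet-like cells and at 387 and 352 in cycling cells. In the remaining named classes it ran from 99.1 CPM in Paneth-like cells of the library labelled NFKO to 207 in tuft-like cells of the same library. Xbp1, which drives chaperone and folding genes once its mRNA has been spliced by Ire1, was at 357 and 349 CPM in goblet-like cells. The counts cannot tell its spliced from its unspliced form. Xbp1 was at 339 and 322 CPM in cycling cells, 242 and 212 in enteroendocrine-like cells and 91.9 and 109 in Paneth-like cells. The low Paneth-like levels of Klf4 and Xbp1 hold for the CPM scale. The 50 most abundant genes took 76.5% and 73.1% of the Paneth-like UMIs, against 28.4% and 30.1% in enteroendocrine-like cells. The 95% intervals of Xbp1 in goblet-like and cycling cells of WT overlapped, at 349 to 366 and 318 to 362.

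Bhlha15 and Sox9 peaked elsewhere. Bhlha15, also called Mist1, an organizer of exocrine cells, was at 42.4 CPM (39.6 to 45.3) in WT Paneth-like cells and 41.3 (38.1 to 44.6) in the library labelled NFKO. Goblet-like cells had 18.8 and 17.8 CPM, and endocrine, tuft-like and enterocyte-like cells were between 1.55 and 4.02. The Dll1-led cluster, with 41.8 (32.4 to 53.0) and 41.7 (36.7 to 47.2), overlapped the Paneth-like level on the CPM scale only. The 50 most abundant genes took 76.5% and 73.1% of the Paneth-like UMIs and 28.4% and 26.9% of those of the Dll1-led cluster. Bhlha15 UMIs per cell were 3.33 and 2.47 in the deeper Paneth-like cells and 0.907 and 1.07 in the Dll1-led cluster. Sox9 was at 470 CPM (419 to 525) and 434 (407 to 462) in tuft-like cells. Among the named classes its next levels in WT were 153 in cycling, 151 in stem-like, 139 in goblet-like and 134 in Paneth-like cells. In the library labelled NFKO they were 112 in Paneth-like, 107 in cycling, 89.1 in stem-like and 65.9 in goblet-like cells. The unnamed Dll1-led cluster stood above these, at 210 (188 to 234) and 131 (122 to 140). The WT rank of Paneth-like cells holds for the CPM scale. In tuft-like cells the 50 most abundant genes took only 32.1% and 24.2% of the UMIs. Sox9 UMIs per cell were 10.5 and 6.71 in the deeper Paneth-like cells and 3.62 and 6.99 in tuft-like cells. Intervals overlapped between cycling and stem-like and between goblet-like and Paneth-like cells of WT, and between Paneth-like and cycling cells of the other library. Over the 8 named classes, 8 of 10 members had the same highest class in both libraries: goblet for Spdef, Creb3l4, Foxa3, Klf4 and Xbp1, cycling for Creb3l1, Paneth for Bhlha15 and tuft for Sox9. For Atoh1 and Gfi1 the highest class was goblet in 1 library and cycling in the other, and their WT intervals in these classes overlapped.

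**Figure D1:**
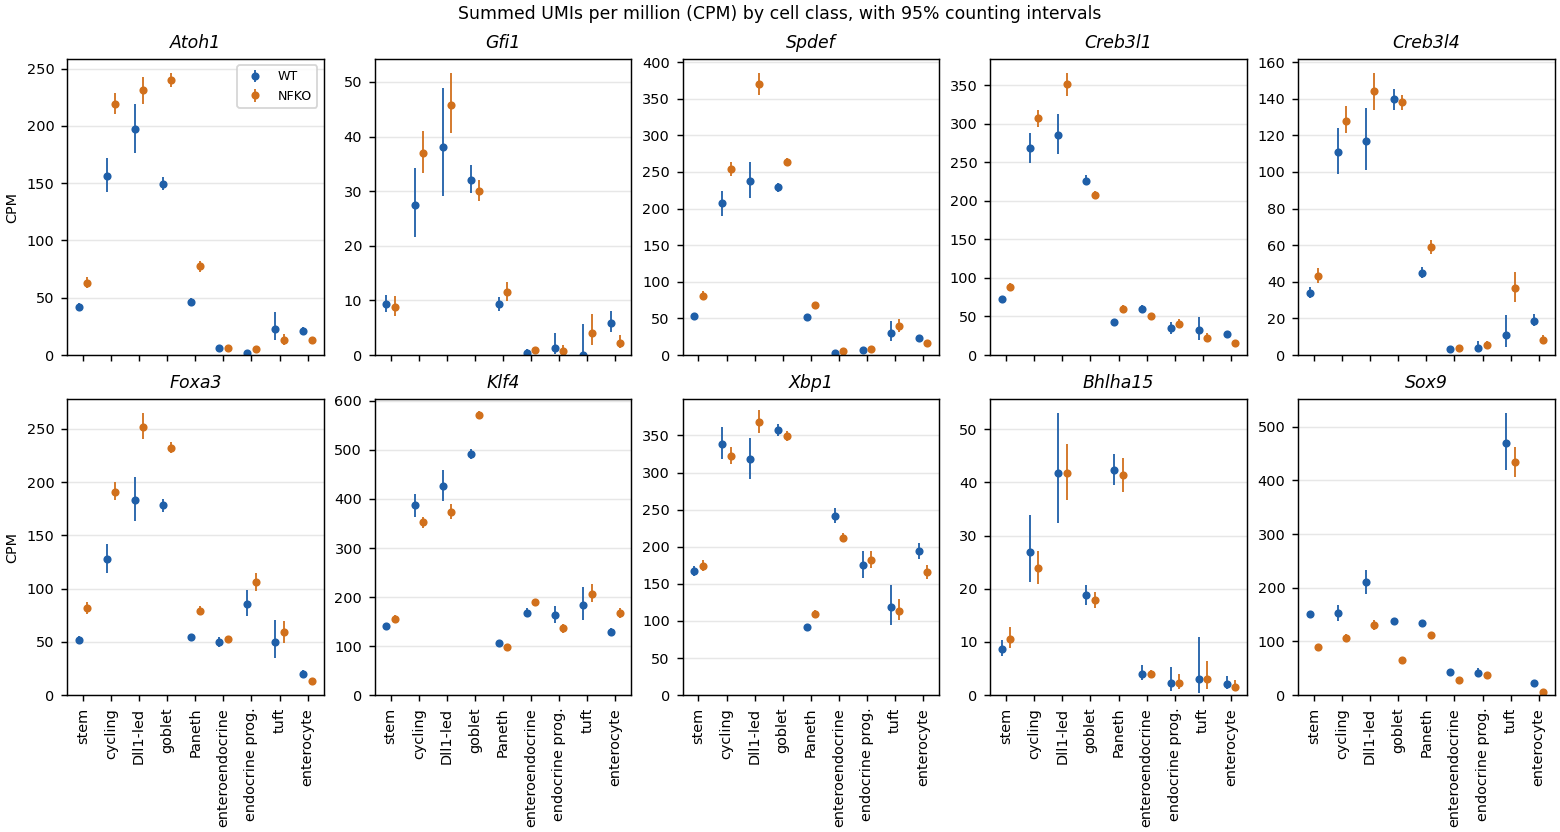
Level of each of the 10 members in CPM (vertical axes, 1 scale per gene) in 8 named cell classes and the unnamed Dll1-led cluster, for WT (blue) and the library labelled NFKO (orange); points are 1 library each and bars are 95% counting intervals. Sox9 stands highest in tuft-like cells at 470 and 434 CPM, and Atoh1 is near 0 in the endocrine classes.

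Enterocytes, the absorptive cells, gave a reference outside the secretory lineages. In goblet-like cells all 10 members were at least 1.5-fold above the enterocyte-like level in both libraries, against 17.0% of 10138 genes tested (21.1% were lower). The ratios ran from 1.85 for Xbp1 to 9.67 for Spdef in WT and from 2.10 for Xbp1 to 18.3 for Atoh1 in the library labelled NFKO. In Paneth-like cells 8 members were higher (5.08% of genes) and 1, Xbp1, was lower (73.8%). The 8 Paneth markers, defensins among them, took 511158 and 473190 CPM of the Paneth sum, which lowers every other gene on this scale. Enteroendocrine-like cells had 3 of 8 counted members higher (48.7% of genes), namely Creb3l1, Foxa3 and Sox9, and 3 lower (14.2%), namely Atoh1, Spdef and Creb3l4. Tuft-like cells had 2 of 8 higher (28.8% of genes), Foxa3 at 2.49 and 4.40 and Sox9 at 21.3 and 68.3, and 0 lower (17.2%).

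RNA of goblet products was also present in the enterocyte-like cells. Products that goblet cells secrete reached, in WT enterocyte-like cells, 22.2% of the goblet level for the mucin Muc2, 27.8% for Fcgbp and 16.7% for Tff3. Atoh1 stood at 13.9% there, Gfi1 at 18.3%, Spdef at 10.3% and Creb3l1 at 11.9%. In the library labelled NFKO Muc2 was at 10.2%, Tff3 at 5.38% and Atoh1 at 5.48%. Over the 7 products examined the range was 9.64% to 32.6% in WT, and every member but Xbp1 (54.1%) lay within it. It was 4.29% to 10.2% in the library labelled NFKO, and every member but Klf4 (29.4%) and Xbp1 (47.6%) lay within it. In enteroendocrine-like cells goblet products were between 0.488% (Zg16, WT) and 3.49% (Agr2, NFKO) of the goblet level. Atoh1 at 4.39% and 2.53%, Spdef at 1.31% and 2.29% and Creb3l4 at 2.22% and 2.63% were close to that size. Creb3l1 at 26.5% and 24.3%, Foxa3 at 27.9% and 22.7%, Bhlha15 at 21.4% and 22.1% and Sox9 at 30.5% and 41.8% were several-fold above it.

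**Figure D2:**
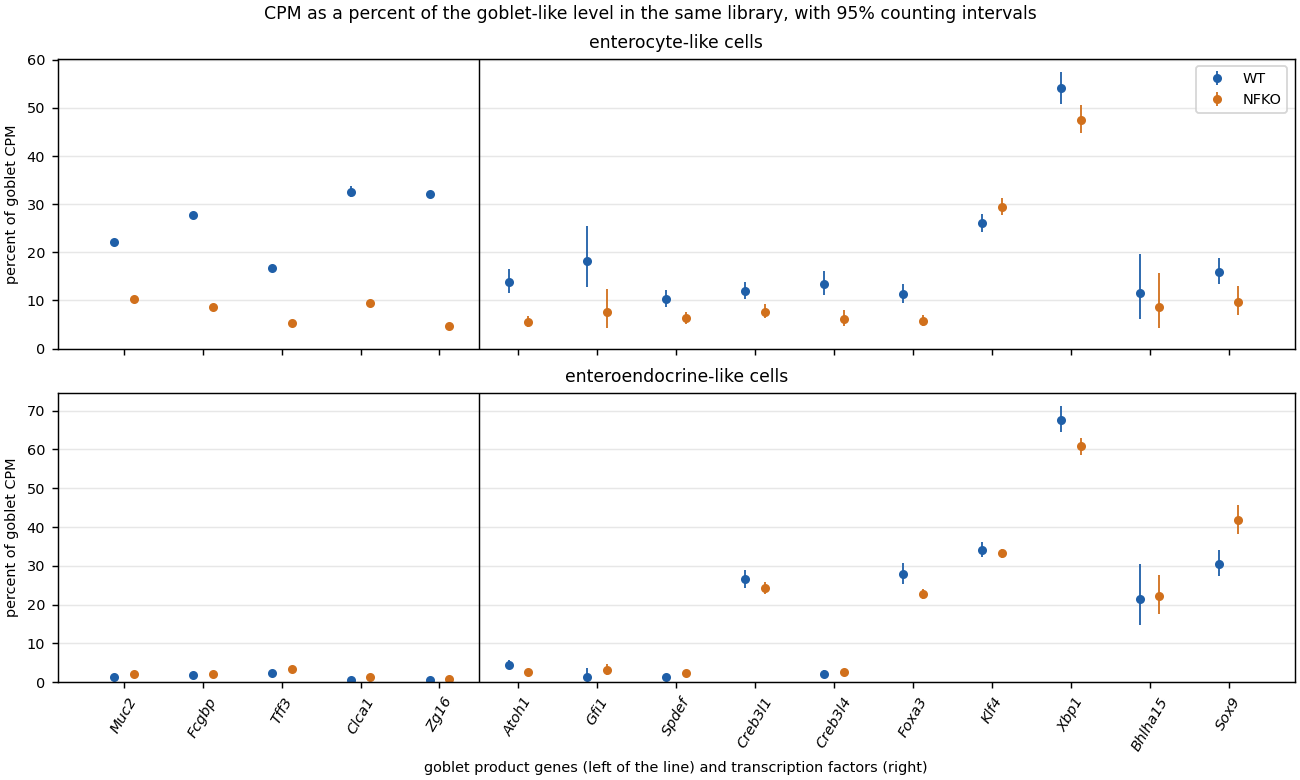
Level in enterocyte-like (top) and enteroendocrine-like cells (bottom) as a percent of the goblet-like CPM of the same library, for 5 goblet products left of the line and the 10 members right of it; bars are 95% counting intervals. In enteroendocrine-like cells Creb3l1, Foxa3, Klf4, Xbp1, Bhlha15 and Sox9 stand well above the goblet products, and Atoh1, Gfi1, Spdef and Creb3l4 do not.

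Cells that held several members at once were mostly goblet-like or in the Dll1-led cluster. After each cell had been thinned to 2000 UMIs, goblet-like cells showed a mean of 2.90 members (WT) and 3.05 members (NFKO). At least 3 members were seen in 58.3% (54.9 to 61.7) and 64.3% (61.8 to 66.7) of them. The Dll1-led cluster had means of 3.41 and 3.29, with 72.0% (60.4 to 81.8) and 66.8% (60.4 to 72.8) of cells at 3 or more. Cycling cells had 2.50 and 2.87, Paneth-like cells 1.78 and 1.74, stem-like cells 1.15 and 1.12, and enterocyte-like cells 0.717 and 0.718. Atoh1 alone was seen in 23.6% of WT goblet-like cells (20.8 to 26.6) and 40.2% of the others (37.7 to 42.7). Unthinned, those classes had median depths of 24234 and 21557 UMIs. In enteroendocrine-like cells, of 12472 and 15595, the thinned share was 0.983% (0.396 to 2.02) and 1.53% (0.972 to 2.29).

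In the Dll1-led cluster some members were near their goblet-like levels and others were not. Foxa3 was at 183 and 252 CPM against 178 and 232 in goblet-like cells. Bhlha15 was higher, at 41.8 and 41.7 against 18.8 and 17.8, and so was Sox9, at 210 and 131 against 139 and 65.9. Klf4 was lower, at 426 and 374 against 491 and 571. Against stem-like cells, 9 of 10 members were higher in both libraries, where 7.98% of 9976 genes were higher and 19.5% lower. Dll1 and the members Spdef, Creb3l1 and Gfi1 were among the leading genes seen when the cluster was picked. Their higher levels here are therefore a description and no independent result. Atoh1 was 4.66-fold (4.06 to 5.34) higher in WT and 3.67-fold (3.35 to 4.03) in the library labelled NFKO. Spdef was 4.44 and 4.55-fold higher, Creb3l1 3.95 and 3.99-fold, and Bhlha15 4.78 and 3.92-fold. Only Sox9 stayed under the limit, at 1.39 and 1.47. Dll1, the Notch ligand by which secretory cells signal to their neighbours, was at 178 and 134 CPM here against 31.4 and 33.7 in stem-like cells. Hes1, the Notch target that represses Atoh1, was at 45.5 and 25.5 CPM against 120 and 97.8. Members above the stem-like level were not particular to this cluster. In cycling cells Atoh1 was at 156 and 219 CPM against 42.2 and 62.8, and Spdef at 207 and 254 against 53.6 and 81.3. Dll1 was at 132 and 126 CPM in cycling cells. The Dll1-led cluster had Cenpw and Ccnb2 among its leading genes. Its cycling markers summed to 1118 and 792 CPM, against 131 and 85.2 in goblet-like cells.

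Of the 18 genes of the Notch pathway and its targets, 13 were counted between the Dll1-led and stem-like cells. Of all genes, 7.98% were higher and 19.5% lower in that contrast. Dll4, Hes6 and Lfng were higher, as was Dll1, by which the cluster had been picked, and Notch1, Notch2 and Hes1 were lower. Among 31 genes of the secretory machinery, 24 of 29 counted were higher and 0 lower, Hspa5 (the chaperone BiP) reaching 1800 and 1903 CPM against 827 and 847. Of the 12 genes of dissociation and heat stress, 10 were higher too and 0 lower, and their part in the members' levels was not tested. The goblet products were present at lower levels than in goblet cells: Muc2 was at 1639 and 1886 CPM against 8160 and 6001 in the Agr2-led goblet cluster. Against the latter, 1 member was higher (9.97% of 7153 genes) and 0 lower (3.94%). That was Bhlha15, at 3.27-fold (2.26 to 4.75) and 1.69-fold (1.45 to 1.97), and it fell short of the limit under median-of-ratios scaling and in male cells alone. Sox9 was 2.67-fold higher in WT and 1.44-fold in the library labelled NFKO.

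Among goblet states the members moved apart. From the Agr2-led to the Zg16-led cluster, which had the highest Muc2 at 21150 and 28612 CPM, 1 member was higher in both libraries (11.6% of 6459 genes) and 5 were lower (32.3%). Klf4 was at 286 CPM in the WT Agr2-led cluster and 833 in the Zg16-led one, and at 447 and 826 in the library labelled NFKO. Its ratio was 2.91 (2.63 to 3.22) and 1.85 (1.79 to 1.91). Creb3l1 was at 218 and 79.3 CPM in WT, and at 260 and 92.7 in the other library, and the Zg16-led cells had ratios of 0.364 (0.270 to 0.482) and 0.357 (0.332 to 0.384). Creb3l4 had ratios of 0.340 and 0.398, Gfi1 of 0.396 (0.156 to 0.842) and 0.552 and Bhlha15 of 0.239 (0.0282 to 0.904) and 0.131. The WT Zg16-led cells held only 7 UMIs of Gfi1 and 2 of Bhlha15. Sox9, a crypt factor, was the lowest in the library labelled NFKO, at 0.252 (0.133 to 0.438) and 0.0989 (0.0787 to 0.123).

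Atoh1 stayed under the limit between these states on the CPM scale, with ratios of 1.07 (0.852 to 1.32) and 1.13 (1.07 to 1.18), where the median of all genes was 0.884 and 0.724. The 50 most abundant genes took 56.5% and 60.3% of the UMIs in the Zg16-led cells and 40.2% and 34.5% in the Agr2-led cells. Spdef at 0.813 and 0.720, Foxa3 at 0.712 and 0.990, and Xbp1 at 0.967 and 0.890 also stayed under the limit. Of the secretory machinery, 18 of 30 counted genes were lower in the Zg16-led cells and 0 higher, where 32.3% of 6459 genes were lower and 11.6% higher. A link to the lower Creb3l1, Creb3l4 and Bhlha15 was not tested. Hspa5 fell from 1238 to 792 CPM in WT and from 1869 to 592 in the other library. Others that fell were Hsp90b1, Pdia4, Pdia6, Sec61b and Manf, which fold and pass on new proteins in the endoplasmic reticulum. The Zg16-led cells held a median of 7025 UMIs and the Agr2-led cells 28788. After thinning to 2000 UMIs 3 of the members were still counted past the limit, 1 higher and 2 lower. In the Edn2-led cluster, which was almost wholly WT, Sox9 was at 163 CPM and Klf4 at 538, and the heat-shock gene Hspa1a was at 575 CPM.

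**Figure D3:**
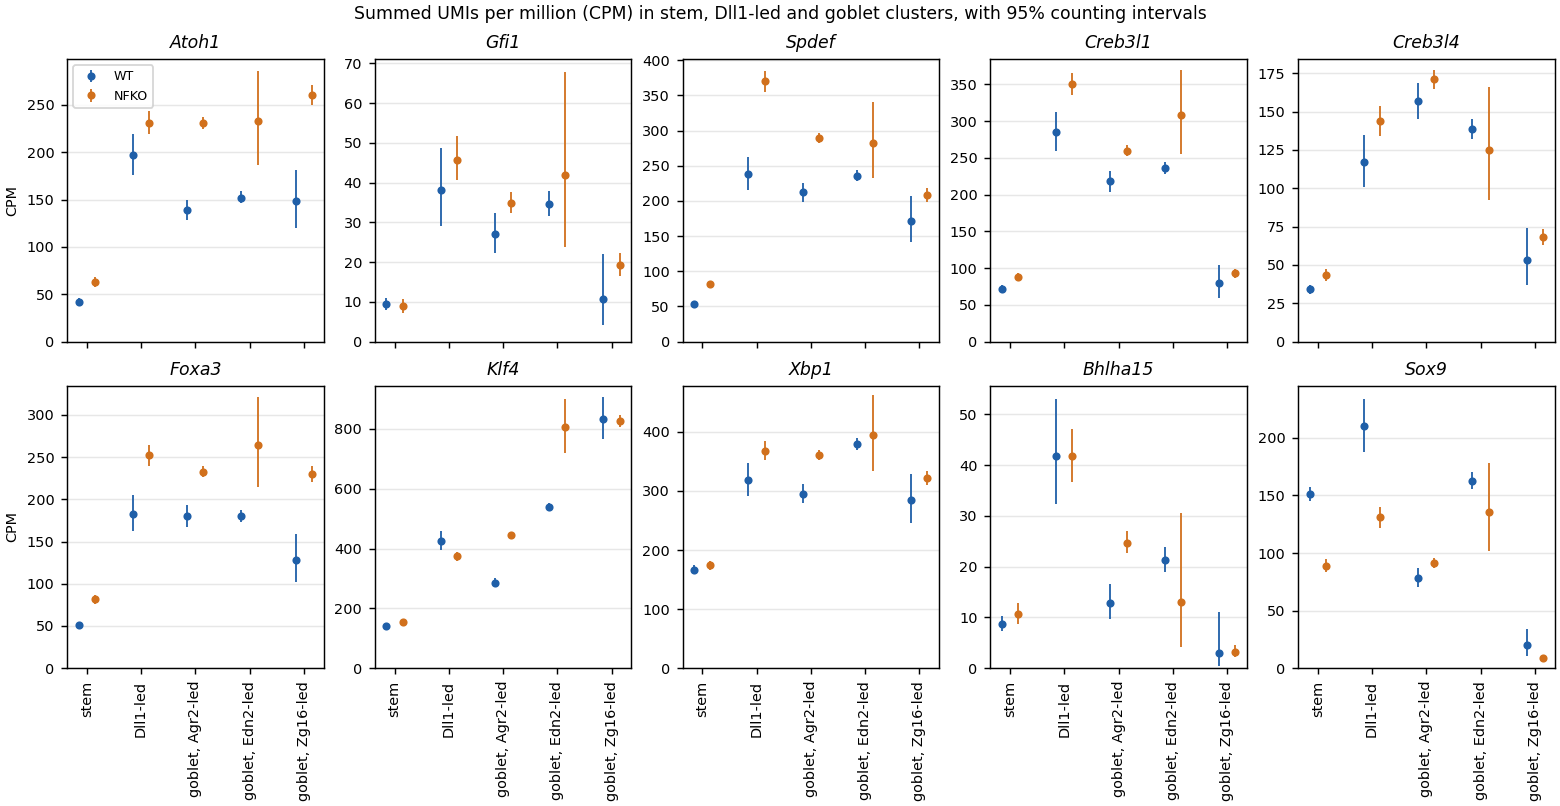
Level of each member in CPM in the stem-like cluster, the Dll1-led cluster and 3 goblet-like clusters, for WT (blue) and the library labelled NFKO (orange), with 95% counting intervals. Klf4 is highest in the Zg16-led cells at 833 and 826 CPM, where Creb3l1, Creb3l4, Gfi1, Bhlha15 and Sox9 are lower than in the Agr2-led cells.

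Paneth-like cells fell into a cluster led by defensins (146 WT cells and 161 of the other library) and one led by Rnase1, Retnlb and Mmp7 (119 and 93). On the CPM scale all 10 members were lower in the defensin-led cells, but so were 94.3% of 7398 genes (0.798% were higher). The 50 most abundant genes took 84.4% and 81.1% of the UMIs there and 46.3% and 43.7% in the Rnase1-led cells. Counted per 1000000 UMIs outside the most abundant genes of any class, 2 members were lower, where 2.84% of genes were lower and 6.96% higher. Creb3l1 was at 90.1 and 149 in the defensin-led cells and 385 and 438 in the Rnase1-led cells, which makes 0.234 (0.199 to 0.274) for WT and 0.339 (0.294 to 0.391) for the library labelled NFKO. Spdef had ratios of 0.452 (0.398 to 0.512) and 0.494 (0.436 to 0.560). Bhlha15 went the other way on this scale, at 1.32 (1.15 to 1.52) and 1.53 (1.29 to 1.82), and passed the limit in the library labelled NFKO alone. Sox9 had 1.12 and 0.891 and Atoh1 0.724 and 0.848.

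Among endocrine cells, Sox9 and Klf4 marked particular hormone clusters in both libraries. Sox9 was at 221 CPM (WT) and 165 (NFKO) in the Sst-led cluster, of the somatostatin cells, and at 118 and 77.9 in the Tac1-led cluster. It was between 2.20 and 35.1 CPM in the other WT enteroendocrine clusters and between 0.592 and 9.65 in those of the library labelled NFKO. Endocrine progenitors had 41.3 and 36.7 CPM. Klf4 was at 754 and 927 CPM in the cluster led by Cartpt and holding Tph1, the enzyme of serotonin synthesis, a cluster that was 82.5% NFKO when both libraries were weighted equally. In the Sst-led cluster Klf4 was at 22.7 and 24.2 CPM.

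Klf4 differed between the libraries in opposite directions from cluster to cluster. It was at 97.6 (WT) and 48.4 CPM (NFKO) in the Gip-led cluster, 178 and 88.9 in the Tac1-led, 136 and 59.3 in the Gcg-led, and 718 and 241 in the Cck-led cluster of 13 and 71 cells. It had 165 and 308 CPM in the Nts-led and 198 and 274 in the Ppy-led cluster. Klf4 can also respond to stress, and 12 genes of dissociation and heat stress summed to 12584 CPM in WT enteroendocrine-like cells and 7473 in the others, with 8 of 12 lower and 0 higher; their part in the Klf4 difference was not tested. Creb3l1 ran from 22.7 CPM (Sst-led) to 74.2 (Tac1-led) in WT, and Foxa3 from 14.3 (Nts-led) to 90.4 (Cck-led), the smallest of these clusters holding 13 WT cells. In the library labelled NFKO Creb3l1 ran from 32.2 (Nts-led) to 84.0 (Cartpt-led) and Foxa3 from 31.4 (Ppy-led) to 88.6 (Tac1-led).

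**Figure D4:**
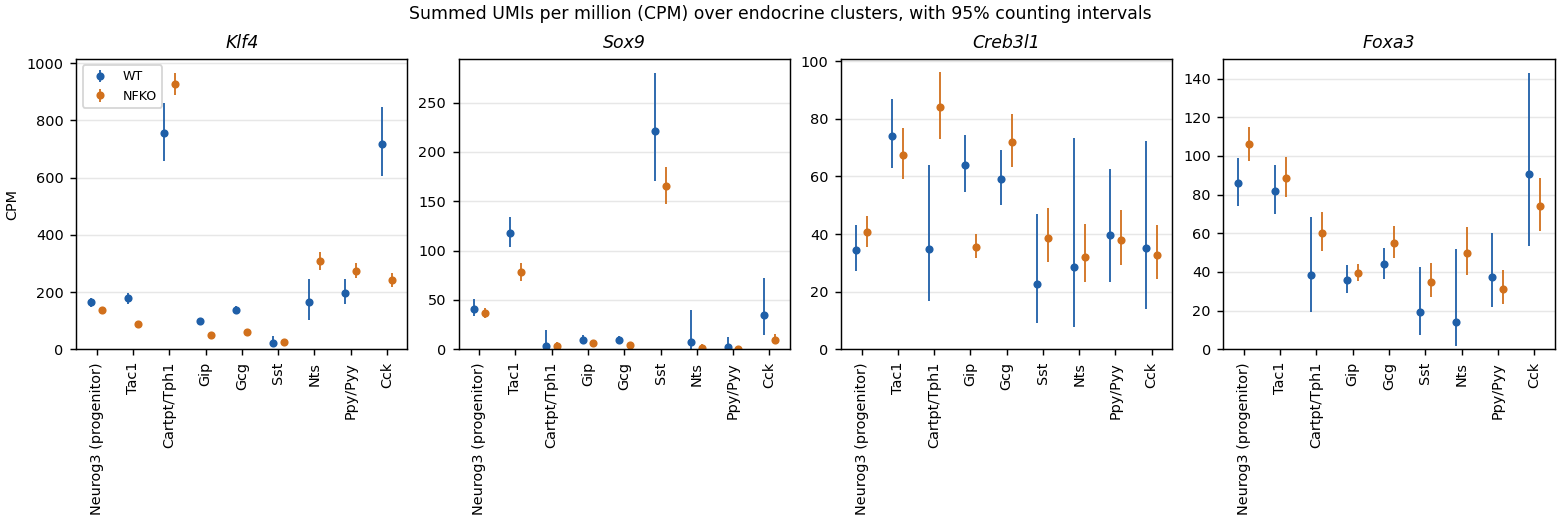
Level of Klf4, Sox9, Creb3l1 and Foxa3 in CPM over the Neurog3-marked progenitor cluster and 8 enteroendocrine clusters, named by a leading hormone or enzyme gene, for WT (blue) and the library labelled NFKO (orange), with 95% counting intervals. Klf4 is high in the Cartpt/Tph1 cluster of both libraries and Sox9 in the Sst and Tac1 clusters.

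Between the libraries, the goblet-like class had 1 member higher in the library labelled NFKO (7.95% of 10972 genes) and 1 lower (6.19%). Atoh1 had 2821 UMIs (WT) and 7296 UMIs (NFKO), or a ratio of 1.61 (1.54 to 1.68). It was 1.66 (1.53 to 1.81) in the Agr2-led cluster, 1.76 (1.44 to 2.18) in the Zg16-led cluster and 1.53 (1.22 to 1.89) in the Edn2-led cluster. In male cells alone the ratio over the class was 1.53. Klf4 was at 1.56 (1.47 to 1.66) in the Agr2-led cluster, where it came to 1.41 with size factors, and at 0.992 (0.909 to 1.08) in the Zg16-led cluster. Bhlha15 was at 1.93 (1.46 to 2.60) in the Agr2-led cluster, or 1.47 in its male cells, and at 0.613 (0.198 to 1.45) in the Edn2-led cluster. Foxa3 was at 1.80 (1.45 to 2.26) in the Zg16-led cluster. Over the class Foxa3 was at 1.31 (1.25 to 1.36), Klf4 at 1.16, Spdef at 1.15, and Creb3l1, Creb3l4, Xbp1, Gfi1 and Bhlha15 between 0.918 and 0.987. The secretory machinery had 0 of 30 counted genes past the limit in either direction. Markers of enteroendocrine cells summed to 126 CPM in WT goblet-like cells and 653 in the others, and their part in these ratios was not tested.

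Goblet-like Sox9 was at 139 CPM (WT) and 65.9 CPM (NFKO), a ratio of 0.475 (0.448 to 0.504). Most WT cells were in the Edn2-led cluster and most others in the Agr2-led and Zg16-led clusters, and the part of this makeup in the ratio was not tested. Within the Agr2-led cluster Sox9 was at 78.6 and 91.1 CPM, a ratio of 1.16 (1.03 to 1.31). In the Zg16-led cluster it was 0.454 (0.252 to 0.887), from 13 and 86 UMIs, and in the Edn2-led cluster 0.835 (0.621 to 1.10).

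The ratio was also taken cluster by cluster. All clusters come from the same 2 libraries, so they are not repeats of a genotype, and the counts below are a description. Such counts were not taken over all genes, whose median ratio by named class ran from 0.965 to 1.14. Of 13 clusters in which Atoh1 was counted, its level was higher in the library labelled NFKO in 11, and the interval lay above 1 in 10 of them and below 1 in 1. The median ratio was 1.49. Of 16 clusters with enough Sox9, 1 had a ratio over 1, the interval lay below 1 in 10, and the median was 0.748. Ratios above 1 were also the more frequent for Foxa3 (19 of 22 clusters, median 1.38), Spdef (13 of 15, 1.31) and Gfi1 (8 of 9, 1.21). Xbp1 had 12 of 23 above 1 (median 1.04) and Klf4 10 of 23 (median 0.986).

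In Paneth-like cells Atoh1 was the only member called, at 46.7 CPM (WT) and 77.3 CPM (NFKO) (1.65, 1.52 to 1.80), where 11.7% of 9451 genes were higher and 4.04% lower. The median of all genes in this class was 1.14, and with median-of-ratios scaling, which moved every ratio by -0.189 on the log2 scale, Atoh1 came to 1.45 and was no longer called. Thinned to 2000 UMIs, it was 0.998, and in male cells, on 895 and 89 UMIs, it was 3.03. In stem-like cells Foxa3 (1.59, 1.44 to 1.75) and Spdef (1.52, 1.38 to 1.67) were higher (4.80% of 10953 genes) and Sox9 (0.590, 0.547 to 0.636) was lower (6.39%). Atoh1 there was at 1.49 (1.33 to 1.66). The 8 goblet markers moved with them in stem-like cells, from a sum of 19384 to 30473 CPM, with Zg16 at 3.74 and Agr2 at 1.61, and their part was not tested. In male stem-like cells Foxa3 and Spdef were both at 1.16 and Sox9 at 0.556, so the first pair was not called without the female cells.

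Cycling cells had 0 of 10 members called in either direction (7.46% of 9604 genes were higher and 5.85% lower). Foxa3 at 1.49 (1.33 to 1.68) and Atoh1 at 1.40 (1.26 to 1.56) came nearest. In the Dll1-led cluster Spdef was higher, at 238 CPM (WT) and 370 CPM (NFKO) (1.56, 1.40 to 1.74), where 8.32% of 8190 genes were higher. Sox9 was lower there, at 210 and 131 CPM (0.623, 0.548 to 0.709), where 6.18% were lower. In male cells Spdef was at 1.24 and Sox9 at 0.732, both within the limit. Dll1 was 0.752 (0.657 to 0.863) in the same cells, and Hes1, at 0.560, was lower.

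Enteroendocrine-like cells had 1 of 9 counted members higher (6.54% of 12413 genes) and 1 lower (7.40%). The higher one was Spdef, from 26 and 141 UMIs (2.02, 1.32 to 3.20), and 5 cells held 73.1% of its WT UMIs. In the Gip-led cluster, the largest of the class, it was at 0.794 (0.441 to 1.49), and with doublets kept it was at 1.06 over the class. Muc2 moved with it in these cells, at 91.1 and 292 CPM (3.21, 2.98 to 3.46), and its part in the Spdef ratio was not tested. Sox9 was lower, at 42.4 and 27.6 CPM (0.650, 0.571 to 0.741). Endocrine progenitors had 0 of 6 counted members called (7.65% of 9436 genes were higher and 4.10% lower). Foxa3 was at 1.23 there (1.04 to 1.46) and Sox9 at 0.887 (0.690 to 1.15). In tuft-like cells 1 of 7 counted members was higher (19.5% of 6437 genes) and 0 lower (14.2%). That was Creb3l4 at 3.41 (1.58 to 8.74), from 7 WT UMIs and 82 of the library labelled NFKO. It was no longer called after thinning, which left a Creb3l4 UMI in 0 and 11 cells. In male cells (1.54, from 5 and 3 UMIs) it was under the minimum of 50 UMIs. Goblet markers moved with it in tuft-like cells, from a sum of 3005 to 6517 CPM, with Muc2 at 2.99 (2.41 to 3.77) but Agr2 at 0.633, and their part was not tested. Sox9 was at 0.925 (0.813 to 1.05). The median tuft-like cell held 6208 and 16720 UMIs.

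Enterocyte-like cells had 6 of 9 counted members lower and 0 higher, where 10.6% of 9183 genes were lower and 10.6% higher. They were Atoh1 (0.635, 0.482 to 0.833), Gfi1 (0.385), Creb3l1 (0.591), Creb3l4 (0.450), Foxa3 (0.663) and Sox9 (0.288, 0.201 to 0.405). The goblet products were lower too, with Tff3 at 0.436, Agr2 at 0.456 and Muc2 at 0.803, and the part of goblet RNA in the members' ratios was not tested. Different clusters held the class: WT had 123 cells in the Apoa4-led cluster (median 4381 UMIs) and 133 in the Car4-led cluster (median 35114), and the library labelled NFKO had 244 and 108. The 10 enterocyte markers summed to 3747 CPM (WT) and 29690 CPM (NFKO). In the Apoa4-led cluster Atoh1 was at 1.26 (0.565 to 3.29) and in the Car4-led cluster at 0.596 (0.414 to 0.843). Foxa3 and Creb3l1 also turned between them: in the Apoa4-led cluster they were at 4.77 (1.25 to 40.4) and 4.40 (1.15 to 37.4), each from 2 WT UMIs, and in the Car4-led cluster at 0.560 and 0.632. Spdef was at 1.78 (0.819 to 4.60) and 0.564, with an upper bound of 0.785 on the latter. Thinned to 2000 UMIs, none of the 6 was called and Atoh1 was at 1.44. Thinning left an Atoh1 UMI in 6 and 14 cells, a Foxa3 UMI in 7 and 7 and a Sox9 UMI in 6 and 9. Counts this small do not settle a ratio and could hardly reach the minimum of 50 UMIs.

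**Figure D5:**
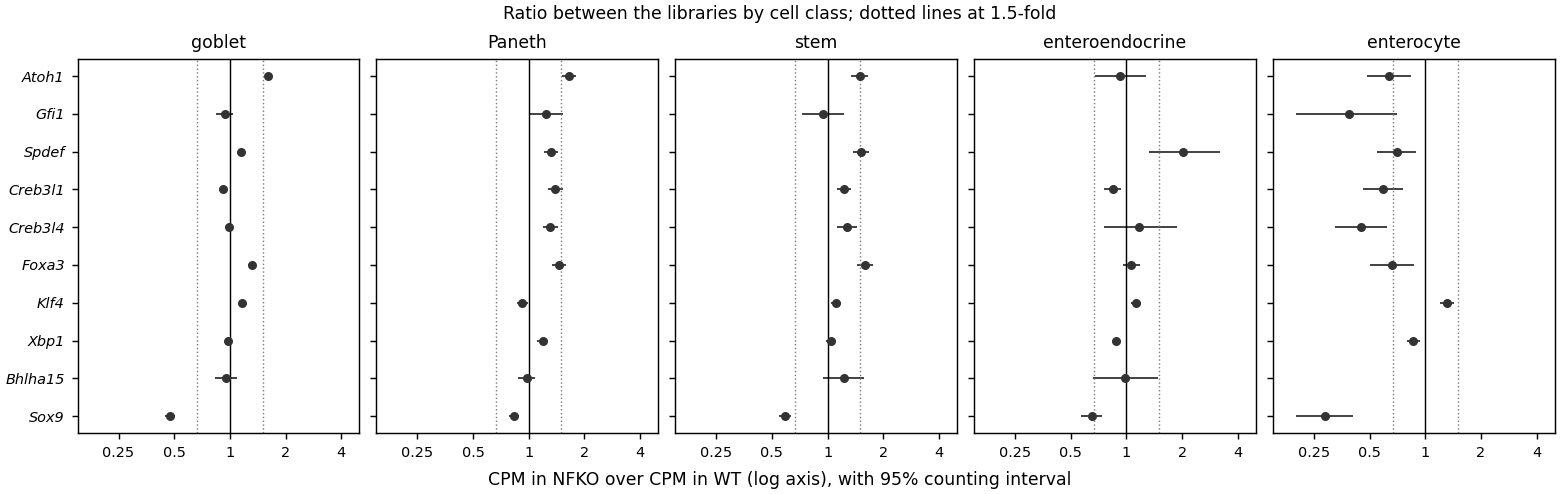
Ratio of the CPM in the library labelled NFKO to that in WT (log axis) for each member in 5 cell classes, with 95% counting intervals; the solid line is at 1, dotted lines are at 1.5-fold, and members under 50 UMIs are left out. Atoh1 lies at 1.61 in goblet-like and 1.65 in Paneth-like cells, and Sox9 lies left of 1 in all 5 classes on this scale. Thinned to 2000 UMIs, Atoh1 was 0.998 in Paneth-like cells. Sox9 was then 1.23 in enterocyte-like cells, with a UMI left in only 6 and 9 of them.

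The genes most like each member were found by the correlation of log2(CPM + 1) over 44 points, each a cluster of at least 30 cells in 1 library, among 10656 genes. The points share libraries, depth and the makeup of clusters, so the coefficients are a description. Within the members themselves, Spdef and Creb3l4 (r = 0.943), Gfi1 and Creb3l4 (0.927), Gfi1 and Spdef (0.925) and Atoh1 and Spdef (0.924) were the closest pairs. Outside them, Pla2g10, Lrrc26 and Galnt5 were nearest to Atoh1 (0.939 to 0.932), and Fut4 to Gfi1 (0.948). Tpsg1 was nearest to Spdef (0.953). Nearest to Creb3l1 were Dnajc10, Txndc5 and Galnt12 (0.941 to 0.897), and nearest to Creb3l4 were Kdelr3, Cracr2a and Ccl9 (0.948 to 0.932). Foxa3 had Txndc5, Kcnk1 and Cd9 (0.897 to 0.881), and Bhlha15 had Fkbp11, Rnase1 and Mmp7 (0.852 to 0.848). For Xbp1 they were Tmem183a, Prrc1 and Sar1a (0.862 to 0.844). Klf4 had the loosest partners, with Slc22a23 at 0.789, and Sox9 was nearest to Adra2a (0.889).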

How the data were processed

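Tomato+ cells of 2 groups were profiled with the 10x Genomics 3′ kit, and the deposited values are raw UMI counts per gene and barcode that the authors made with Cell Ranger 5.0.1; the submitters' processing notes name the build mm10, and the filters used are not given in the sources used here. Seurat is also the clustering tool of the study's methods. The matrices held 5051 and 7540 barcodes with 90002878 and 124300388 UMIs. The cell filter (500 genes, 1000 UMIs, no more than 25% mitochondrial) removed 38.1% and 25.3%. Scrublet (scanpy 1.11.5) marked 3 and 0 cells at its own threshold, so the 126 and 340 highest scores were removed at 0.8% per 1000 barcodes. Clustering used Seurat 5.3.0 in R 4.3.3 with 2000 variable genes, 30 components, 20 neighbours and resolution 0.8, without the 10 members and 10 further genes (sex-linked genes, Foxo1, Iapp and both insulin genes). A class name required at least 3 of its markers 2-fold higher and in at least 10% of a cluster's cells, by thresholds set after the data had been seen; progenitor and shallow clusters also needed such markers among their 10 leading genes. Of the 24 clusters 3 stayed unnamed.

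Counts were summed per class and library and given as CPM. Intervals are exact at 95% (Poisson for sums, Clopper-Pearson for shares, conditional binomial for ratios, in scipy 1.17.1) and cover counting error only. With 1 library per group no p-value was computed. Members below 50 UMIs over both libraries were not counted, and 0 UMIs were given the limit of 3 counts. The statistics were tested on simulated data. All 10 members were described, with lists of Notch, secretory machinery, stress, lineage and related factors, and the 3 genes most correlated with each. The members and lists were chosen with earlier results of these data known, and the promoter motifs after the promoters had been read. Gene IDs matched GENCODE M21 for 32235 of 32285 genes. Alternatives were other cell filters, doublet rules, clusterings, scalings, weights, depths, count minimums and male cells.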

Additional observations from a re-analysis of the deposited data

Results flagged for a closer look

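The ratio between the libraries pointed in opposite directions in different cell classes for 3 members, and none of these differences was tested. Atoh1 was higher in the library labelled NFKO in goblet-like (1.61) and Paneth-like cells (1.65) and lower in enterocyte-like cells (0.635). Creb3l4 was higher in tuft-like cells (3.41, from 7 and 82 UMIs) and lower in enterocyte-like cells (0.450, from 122 and 60 UMIs). Foxa3 was higher in stem-like cells (1.59) and lower in enterocyte-like cells (0.663). The enterocyte-like ratio stood on 134 and 93 UMIs for Atoh1 and 131 and 95 for Foxa3, and both turned above 1 when each cell had the same weight.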

How the results depend on the processing

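Of 631 single ratios recomputed, 475 stayed within the interval first given and 543 on the same side of 1. Of 203 recomputed counts of members, 164 stayed within 1.5 times the first value; the cause of the others was not tested unless the setting itself removes genes or cells. No paired analysis was possible because each group has 1 library, and no replicate could be left out. In goblet-like cells the count of 2 called members stayed within 1.5 times under every alternative run, but Sox9 turned from 0.475 to 1.16 without clusters mostly of 1 library. That setting left the Agr2-led cluster, where Atoh1 (1.66), Klf4 (1.56) and Bhlha15 (1.93) were called higher, so the called members changed. In enteroendocrine-like cells the count of 2 fell to 1. The call of Spdef was lost with all deposited barcodes (1.13) and with doublets kept (1.06). In male cells Spdef was at 2.32 from 24 and 11 UMIs, under the minimum of 50 UMIs, so it was not counted. After thinning it was not called either, with a Spdef UMI left in only 2 and 30 cells. That of Sox9 was lost with stricter cell filters, resolution 0.4, size factors, without clusters mostly of 1 library and outside the most abundant genes (0.668 to 0.702). With equal weights Sox9 was not called (0.669) and Klf4 was (1.53). In Paneth-like cells the count of 1 fell to 0 with size factors, equal weight for each cell, thinning (Atoh1 0.998) and outside the most abundant genes, and rose to 8 in male cells. In tuft-like cells the count of 1 was 3 with stricter filters, 0 after thinning and in male cells, 2 with a count minimum of 20, 3 with no minimum and 2 outside the most abundant genes. In enterocyte-like cells the count of 6 became 1 with all barcodes (Atoh1 1.2, Foxa3 1.23), 3 with doublets kept (Foxa3 1.00), 2 with equal weights (Atoh1 1.09, Foxa3 1.10), 0 after thinning (Atoh1 1.44, Creb3l1 1.10, Sox9 1.23) and 3 in male cells (Gfi1 1.18). Thinned, Atoh1 was seen in 6 and 14 of these cells, Creb3l1 in 6 and 7 and Sox9 in 6 and 9, hardly enough for 50 UMIs. Male Gfi1 had 34 and 5 UMIs, under that minimum.

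Between states, the 6 members called between goblet clusters became 3 after thinning. The 10 called between Paneth clusters became 2 with size factors, 6 after thinning and 2 outside the most abundant genes, a scale chosen after seeing the data. Between the Dll1-led and the Agr2-led cluster 1 became 2 with the members among the clustered genes or with equal weights, and 0 with size factors or in male cells. Against enterocyte-like cells, the 9 of Paneth-like cells became 5 with stricter filters and in male cells, the 6 of enteroendocrine-like cells became 3 after thinning and 2 in male cells, and the 2 of tuft-like cells became 5 with all barcodes and 1 after thinning.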

Other observations

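Other lineage factors that were not members also differed in goblet-like cells, at low levels. Of 16 counted genes on that list 5 were higher in the library labelled NFKO and 1 was lower, against 7.95% and 6.19% of all genes tested. The higher ones were factors of endocrine cells: Neurod1 was at 2.69 CPM (WT) and 8.09 CPM (NFKO), Insm1 at 1.00 and 4.11, Pax6 at 1.11 and 3.19, Nkx2-2 at 1.11 and 2.80, and Isl1 at 1.32 and 3.75. Markers of enteroendocrine cells moved with them in these cells, from a sum of 126 to 653 CPM, and their part in the difference was not tested. Klf5, a factor of dividing crypt cells, was the lower one, at 387 and 239 CPM. Of 12 counted Notch genes in goblet-like cells, Id3 was higher (169 and 278 CPM) and Lfng, which modifies Notch, lower (15.1 and 7.56 CPM), which is 1 gene in each direction. Among 8 counted relatives of the members, Creb3l3 was higher, from 12 and 46 UMIs, and Klf5 lower. The stress list had 6 of 12 genes lower and 0 higher in goblet-like cells, against 6.19% and 7.95% of all genes, and its sum was 6729 and 4217 CPM.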
